A study of Mus musculus with 7 samples.

Results

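Liver and kidney were compared gene by gene in RNA-Seq data from 7 mouse tissues, with 1 library for each tissue. The comparison took in all named genes of the deposited table. Of 50226 names with a usable locus, 50170 had a value in both organs, and 14637 of these reached at least 1 FPKM in liver or kidney. FPKM is a fragment count scaled for transcript length and library size, so that levels can be set side by side between genes. A difference is given as the log2 ratio of FPKM + 0.1, liver over kidney, in which a ratio of 2 stands for 4-fold and a negative value for a higher level in kidney. The 0.1 added to each value shrinks the ratio of genes with a low level. A second set held the genes shared by both organs, defined as names at least 4-fold above each of the other 5 tissues in liver and in kidney alike, and it had 287 members.

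Both organs came from wild-type C57BL/6 mice aged 36 weeks on the diet labelled NCD, and skeletal muscle, cortex and 3 adipose tissues, visceral (VAT), subcutaneous (SCAT) and brown (BAT), carry the same labels. The study describes the mice as lean and gives the strain as C57BL/6N. The labels give neither the sex nor the number of animals behind a library. With 1 library for each organ, no difference has a replicate check and no p-value was computed. Without fragment counts in the table, the depth of the libraries is unknown. In bulk tissue, fewer cells of a type and less RNA per cell cannot be told apart.

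The liver consists mainly of hepatocytes, which secrete most plasma proteins, make bile acids and urea and store glycogen. The kidney filters plasma in the glomerulus and recovers sugar, amino acids, phosphate and protein in the proximal tubule, and the distal nephron then adjusts salt, acid and water. Both organs can release glucose made from smaller precursors, and both break down amino acids and modify drugs and other foreign compounds for excretion. Mouse liver and kidney also share the nuclear receptor HNF4A, a transcription factor of epithelial cells.

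Marker genes went with the labels. Apoa1, the main protein of high-density lipoprotein (chromosome 9 of GRCm38, 46228580 to 46230466), was at 2521 FPKM in liver, 0.358 in kidney and 17.7 in VAT, and between 0.126 and 1.01 in the other 4 tissues. Slc34a1, the phosphate transporter of the proximal tubule (chromosome 13, 55398187 to 55415592), was at 505.5 FPKM in kidney and 0.207 in liver, and at most 0.125 elsewhere. All 5 markers of the proximal tubule, 4 of the thick ascending limb, 3 of the distal convoluted tubule and 4 of intercalated cells were at least 4-fold higher in kidney. With a pseudocount of 1 in place of 0.1, 3 of the thick ascending limb, 2 of the distal convoluted tubule and 3 of intercalated cells were, and Foxi1, of intercalated cells, was also within 4-fold on the annotated strand (log2 ratio -1.04). Both podocyte markers compared were higher in kidney (1 of them with a pseudocount of 1), and a further one, Synpo, was below 1 FPKM in both organs. Of 4 markers of principal cells, 2 were higher in kidney, and Avpr2 and Hsd11b2 were within 4-fold. Markers of the adrenal cortex, which lies against the kidney, were near 0: Cyp11b1, Cyp11b2 and Nr5a1 were listed at 0 in both organs, Cyp11a1 and Cyp21a1 were below 0.1 FPKM in both, and Star was at 1.39 FPKM in liver and 1.76 in kidney. Among 5 markers of adipocytes, 2 were at least 4-fold higher in kidney at low levels, Adipoq (1.34 FPKM in kidney, 0.152 in liver) and Plin1 (1.64 and 0.0193), and both were within 4-fold with a pseudocount of 1. Cidec was within 4-fold (3.97 in kidney, 15.3 in liver), and Lep and Retn were below 1 FPKM in both. Of 4 markers of B and T lymphocytes, none reached 1 FPKM in either organ. Ddx3y, Eif2s3y, Kdm5d and Uty, genes of the Y chromosome, lay between 5.68 and 27.3 FPKM in both organs, and Xist was below 1 FPKM.

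Some of the best known hepatocyte genes could not be compared. Alb, which encodes albumin, and Apob, the large protein of very low-density lipoprotein, are listed at 0 in liver with the status LOWDATA, which was treated as a missing value. Alb stood at 252.7 FPKM in VAT and 5.22 in kidney, and Apob at 40.2 in kidney. A liver value was missing in this way for 52 names, of which 18 had at least 10 FPKM in another tissue. The 52 also included Apoe, Apoc1, Serpina1b, Serpina1c and Serpina1d. Trf, which encodes transferrin, and Podxl, a podocyte gene, had loci with the status FAIL and were left out.

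Of the 14637 genes compared, 1368 (9.35%) were at least 4-fold higher in liver and 1552 (10.6%) at least 4-fold higher in kidney. The remaining 11717 (80.1%) were within 4-fold, and 9329 (63.7%) were within 2-fold. Which organ had more genes 4-fold higher turned with the treatment of low levels: a pseudocount of 1 gave 908 in liver and 800 in kidney, and a minimum of 5 FPKM gave 923 and 824. The median log2 ratio over all genes was 0.05, with quartiles of -0.60 and 0.65. Liver had the more extreme set: 304 genes were at least 64-fold higher in liver and 206 in kidney. The genes higher in liver had a median of 12.5 FPKM there, and those higher in kidney a median of 5.72 FPKM in kidney. In 182 of the genes higher in liver, kidney was listed at 0, and in 180 of those higher in kidney, liver was.

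**Figure D1:**
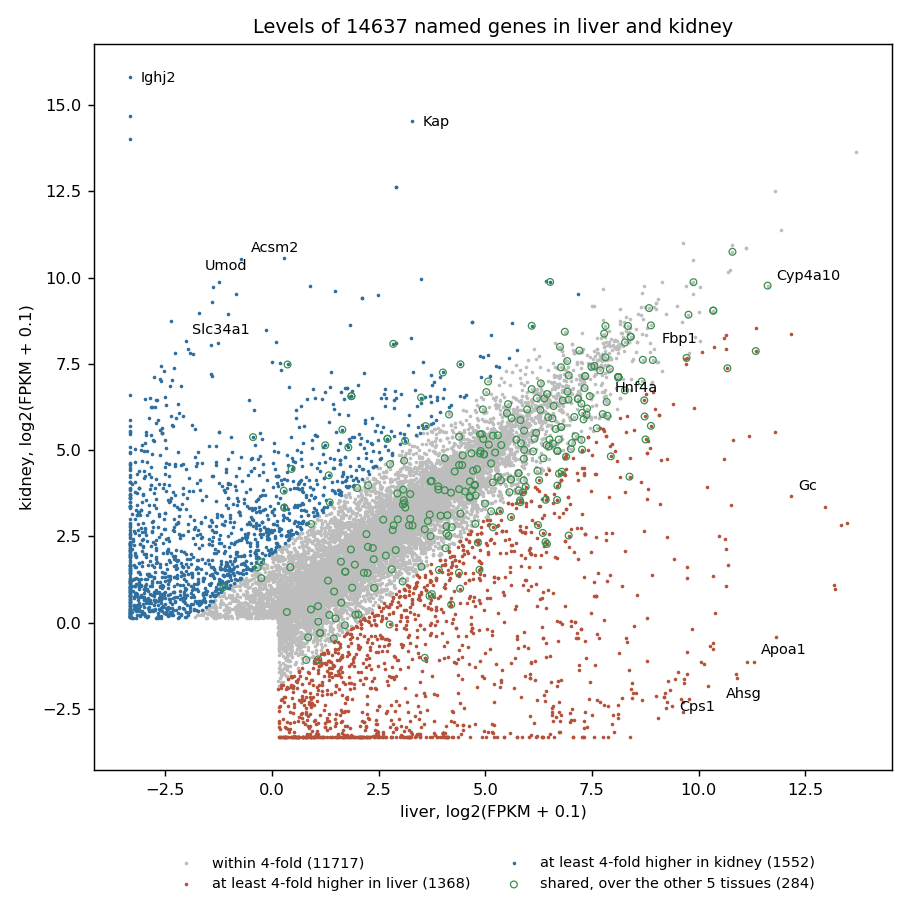
Each point is 1 of 14637 named genes, with log2(FPKM + 0.1) in liver on the horizontal axis and in kidney on the vertical axis, from 1 library each. Red marks the 1368 genes at least 4-fold higher in liver, blue the 1552 higher in kidney, grey the 11717 within 4-fold, and green rings the 284 shared genes among them, most of which lie within 4-fold of the diagonal. The straight edge at the left and at the bottom holds genes listed at 0 in an organ.

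By class of gene, the split was uneven. Of 11940 protein-coding genes, 978 (8.19%) were higher in liver and 1221 (10.2%) in kidney. Of 1196 long non-coding RNAs, 164 were higher in liver and 156 in kidney, against 9.35% and 10.6% of all genes. Of 66 segments of immunoglobulin and T cell receptor genes, 1 was higher in liver and 49 in kidney, among them Ighj2, Ighj3 and Ighj4, joining segments of the antibody heavy chain that were listed at 0 in liver. These segments are very short, which makes FPKM large: Ighj2 was listed at 57476 FPKM in kidney and 442239 in SCAT. Among longer antibody genes, Igha was at 73.7 FPKM in kidney and 2.64 in liver, and Jchain at 15.1 and 2.24. The locus of Ighm, merged with the joining segment Ighj1, was within 4-fold (14.1 and 4.40), and Igkc was below 1 FPKM in both organs (0 and 0.0966). The B cell genes Ms4a1 and Cd79a were at 0.276 and 0.248 FPKM in kidney and at 0.530 and 0.392 in liver.

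Products secreted into blood led the liver side. Apart from loci with several names, the 10 largest ratios among genes with at least 10 FPKM in liver belonged to Ahsg, Apoa1, Mug1, Hpx, Mup3, Cyp3a11, Mup20, Mup11, Apoa5 and Ugt2b36, with log2 ratios of 12.48 down to 11.99. Ahsg, which encodes the plasma protein fetuin-A (chromosome 16, 22891277 to 22899449), was at 1897 FPKM in liver and 0.231 in kidney. Hpx, the haem carrier hemopexin, was at 2237 and 0.351 FPKM. The major urinary proteins are pheromone carriers made in liver and passed into urine: Mup3 was at 9425 FPKM in liver against 1.86 in kidney. Mup11 was at 9301 against 2.01 FPKM, but its locus lies on the strand opposite to the gene, and the locus on the annotated strand gave a log2 ratio of 4.60 in place of 12.11. The loci of Cyp3a11, Mup20 and Ugt2b36 also lie on the opposite strand, and on the annotated strand their log2 ratios were 10.93, 11.32 and 10.86 in place of 12.23, 12.22 and 11.99. Mup genes are near copies of each other, so that the division of reads between them is uncertain.

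The kidney side was led, after the 3 antibody segments, by Acsm2, Kap, Fxyd2, Umod, Slc22a12, Gm44588 and Slc34a1, with log2 ratios of -11.28 to -10.69. Kap, the kidney androgen-regulated protein of the proximal tubule (chromosome 6, 133849851 to 133853762), had the highest level of any protein-coding gene in kidney, 23760.3 FPKM, against 9.54 in liver and at most 5.04 in the other 5 tissues. Acsm2, an enzyme that activates medium-chain fatty acids, was at 1489.9 FPKM in kidney and 0.500 in liver. Fxyd2, a regulatory subunit of the sodium pump, was at 846.5 and 0.282 FPKM. Umod, which encodes uromodulin, a protein of urine (chromosome 7, 119462711 to 119479282), was at 929.5 FPKM in kidney, 0.322 in liver and 0.184 in VAT, and had a value of 0 in the remaining 4 tissues. Slc22a12, the urate transporter of the proximal tubule, was at 424.1 against 0.0937 FPKM. Gm44588 is annotated on the strand opposite to Umod, and the reads of these 2 genes may not have been kept apart, since the locus used for Umod lies on the strand of Gm44588. On the annotated strand the log2 ratio of Umod was -10.23 in place of -11.11.

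Genes were also compared in lists by function. The lists were written with earlier results of these data known, so their counts are a description and not a test. All 19 plasma protein genes compared were at least 4-fold higher in liver, against 9.35% of all genes, with a median log2 ratio of 10.91. The highest level was that of Apoa2, an apolipoprotein, at 11343 FPKM in liver and 7.37 in kidney. Fgb, a chain of fibrinogen, was at 808.1 and 0.222 FPKM, and F2, prothrombin, at 579.8 and 0.126. Hamp, the iron hormone hepcidin, was at 336.7 FPKM in liver, and F9, a clotting factor, at 57.6, and both were listed at 0 in kidney. The smallest ratio of the list was that of Ttr, the carrier of thyroxine and retinol-binding protein, at 3530.1 FPKM in liver and 46.3 in kidney (log2 ratio 6.25), and cortex had 194.7.

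**Figure D2:**
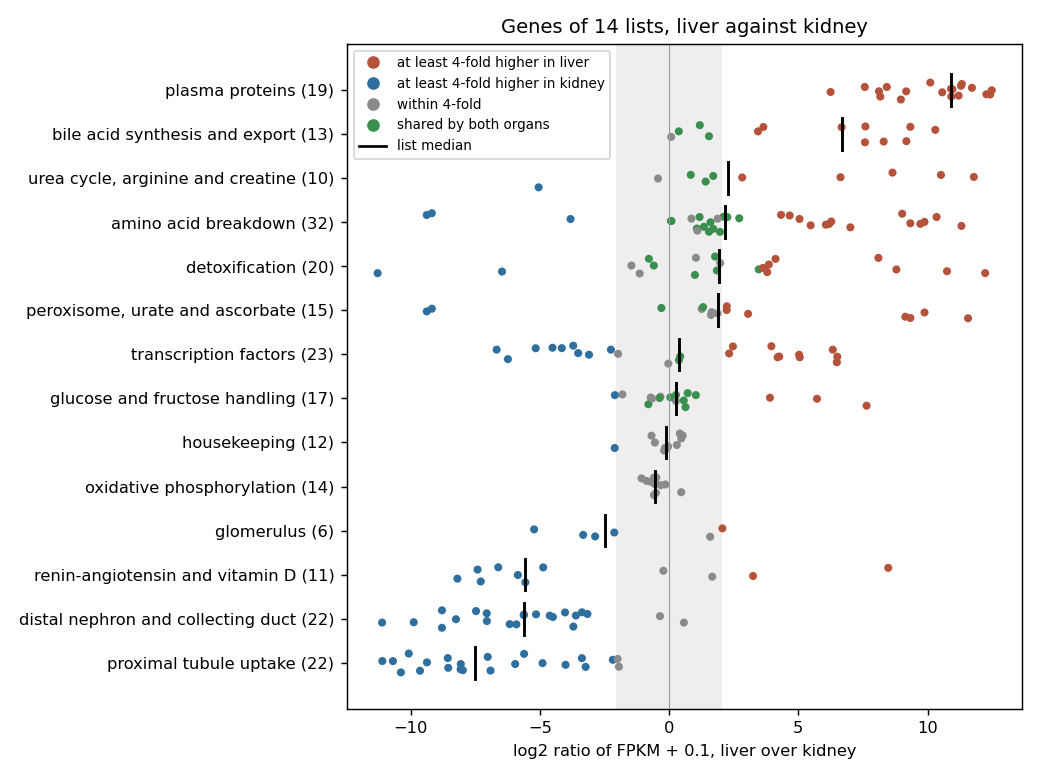
Each point is a gene, placed by its log2 ratio of FPKM + 0.1, liver over kidney, in the 14 lists shown as rows, with the number of genes compared in brackets and the list median as a black bar. The grey band is the range within 4-fold, red and blue mark genes at least 4-fold higher in liver and in kidney, and green marks genes shared by both organs even where they differ by 4-fold. Plasma proteins lie wholly to the right, tubule lists to the left, and glucose handling, oxidative phosphorylation and housekeeping genes around 0. The merged locus named Epo is among the points.

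Bile acid genes were higher in liver or within 4-fold. Of 13 compared, 9 were higher in liver and 0 in kidney, against 9.35% and 10.6% of all genes. The median log2 ratio was 6.68, or 5.61 without Cyp7a1. Cyp7a1, the rate-limiting enzyme of bile acid synthesis, was at 10.1 FPKM in liver and listed at 0 in kidney, from a locus on the opposite strand (log2 ratio 6.68, and 5.69 on the annotated strand). The export pump for bile salts, Abcb11, was at 67.4 FPKM in liver and 0.00459 in kidney, and the cholesterol exporters Abcg5 and Abcg8 were at 35.4 and 22.2 FPKM in liver and at 0.0124 and 0.0155 in kidney. Slc27a5, which joins bile acids to coenzyme A, was at 235.9 and 0.0872 FPKM. By contrast, 4 genes were within 4-fold. Cyp7b1, the oxysterol hydroxylase of the alternative pathway, was at 112.5 FPKM in liver and 86.6 in kidney, Amacr, a racemase of side-chain oxidation, at 39.3 and 37.1, Abcc2, an export pump for conjugates, at 154.2 and 67.6, and Akr1d1, a steroid reductase, at 31.7 and 10.8. Cyp8b1, the sterol hydroxylase that sets the share of cholic acid, was below 1 FPKM in both.

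The urea cycle was split within the pathway. Cps1, the entry enzyme that fixes ammonia, was at 666.5 FPKM in liver and 0.0880 in kidney and Otc, the next enzyme, at 278.1 and 0.0897. The enzymes after them, which together make arginine from citrulline, were shared: Ass1 was at 867.1 FPKM in liver and 485.4 in kidney, and Asl at 215.2 and 65.8. The other tissues had less Ass1, from 2.00 FPKM in muscle, 3.08 in BAT and 5.58 in SCAT to 7.57 in cortex and 11.9 in VAT. Creatine synthesis crossed the organs: Gatm, the first enzyme, was at 101.8 FPKM in kidney and 2.98 in liver, and Gamt, the second, at 6.19 in kidney and 44.6 in liver. In all, 5 of these 10 genes were higher in liver and 1 in kidney, against 9.35% and 10.6% of all genes. The other 4 were within 4-fold, and the median log2 ratio was 2.27.

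Of 32 genes of amino acid breakdown, 17 were higher in liver and 3 in kidney, against 9.35% and 10.6% of all genes. The other 12 were within 4-fold, and the median log2 ratio was 2.18. Bhmt, which remethylates homocysteine with betaine, was at 1115 FPKM in liver and 0.339 in kidney, Tat, the first enzyme of tyrosine breakdown, at 158.8 and 0.0218, and Hal, the first of histidine breakdown, at 91.0 and 0.00788. Hgd, a later enzyme of the tyrosine pathway, was present in both organs, at 309.1 FPKM in liver and 106.1 in kidney. Aass, the first enzyme of lysine breakdown, was nearly equal, at 179.1 and 170.6 FPKM, and at most 2.00 in the other tissues. The genes higher in kidney included Hao2, a hydroxy-acid oxidase of peroxisomes (0.0960 FPKM in liver, 130.3 in kidney), and Dao, D-amino acid oxidase, which was at 57.9 FPKM in kidney and listed at 0 in liver. Of the 32 genes, 12 belonged to the shared set, against 1.94% of all genes compared, and 3 of these 12, Cbs, Dmgdh and Prodh2, were also at least 4-fold higher in liver.

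Genes of glucose and fructose handling were within 4-fold about as often as genes at large. Of 17 genes, 13 were within 4-fold, against 80.1% of all genes, 3 were higher in liver and 1 in kidney, with a median log2 ratio of 0.27, and 8 were shared. Fbp1, a rate-limiting enzyme of glucose production, was at 471.5 and 391.7 FPKM, and G6pc, the glucose-6-phosphatase that completes it, at 57.0 and 36.7. Pck1, the entry enzyme, was at 568.0 FPKM in liver and 930.0 in kidney but at 1226 in BAT, and so was not shared. The fructose enzymes Khk and Tkfc were at 30.9 and 46.2 FPKM in liver and at 39.9 and 80.5 in kidney, and the glucose transporter Slc2a2 at 100.3 and 48.9. The genes higher in liver included those of glycogen in this list: Gys2, liver glycogen synthase, was at 95.9 and 1.72 FPKM, and Pygl, liver glycogen phosphorylase, at 64.7 and 4.23. Gys1, another glycogen synthase gene and not in this list, was higher than Gys2 in both organs. It was at 496.6 FPKM in liver and 241.7 in kidney, within 4-fold (log2 ratio 1.04). Slc2a5, the fructose transporter, was at 23.2 FPKM in kidney and 5.34 in liver, and fell within 4-fold with a pseudocount of 1 (log2 ratio -1.93 in place of -2.10).

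Of 20 detoxification genes, 9 were higher in liver and 2 in kidney, against 9.35% and 10.6% of all genes, and 9 were within 4-fold, with a median log2 ratio of 1.91. Cyp3a11 and Cyp2c29, drug-metabolising cytochromes P450, were at 793.0 and 274.4 FPKM in liver and at 0.0653 and 0.0590 in kidney, while Cyp4b1, another P450, was at 999.4 FPKM in kidney and 11.2 in liver. The ω-hydroxylase of fatty acids Cyp4a10 was at 3139 FPKM in liver and 870.9 in kidney, and Glyat, which joins acids such as benzoate to glycine, at 225.2 and 387.3. Of 15 genes of peroxisomes, urate and ascorbate, 7 were higher in liver, 2 in kidney and 6 within 4-fold, with a median of 1.88. Uox, which breaks down urate, was at 614.5 FPKM in liver and 0.103 in kidney, and Gulo, which makes ascorbate, at 94.7 and 0.0679. Cat, catalase, was at 1049.99 and 286.1 FPKM.

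On the kidney side, 20 of 22 genes of proximal tubule uptake were at least 4-fold higher in kidney, against 10.6% of all genes, and 0 in liver, with a median log2 ratio of -7.50. Lrp2, the megalin receptor for filtered protein, was at 221.6 FPKM in kidney and 0.178 in liver, and its partner Cubn at 58.2 and 0.0561. The glucose transporter Slc5a2, the neutral amino acid transporter Slc6a19 and the organic anion transporter Slc22a6 were at 80.3, 52.4 and 91.6 FPKM in kidney and at 2.598, 0.0957 and 0.0388 in liver. Ggt1, a glutathione-cleaving enzyme of the brush border, was at 223.9 and 0.108 FPKM. The 2 genes within 4-fold were Aqp1, a water channel (42.1 in kidney, 10.5 in liver, log2 ratio -1.99), and Slc23a1, an ascorbate transporter (68.0 and 17.6, log2 ratio -1.94), both just under the limit.

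The distal nephron and collecting duct gave the same count at lower levels. Of 22 genes, 20 were higher in kidney and 0 in liver, against 10.6% and 9.35% of all genes. The median log2 ratio was -5.62, or -5.38 without the 4 genes listed at 0 in liver. With a pseudocount of 1, 16 were higher in kidney. Slc12a1, the salt transporter of the thick ascending limb, was at 138.7 FPKM in kidney and 0.0471 in liver, and Slc12a3, that of the distal convoluted tubule, at 79.2 and 0.0793. Aqp2, the water channel regulated by vasopressin, was at 44.1 FPKM in kidney and listed at 0 in liver, from a locus on the opposite strand (log2 ratio -8.79, and -7.42 on the annotated strand). Calb1, a calcium-binding protein of the distal tubule, was at 18.4 and 0.0396 FPKM, and cortex had 27.1. The exceptions were the vasopressin receptor gene Avpr2 (1.11 in kidney, 0.846 in liver) and Scnn1a, a subunit of the epithelial sodium channel (5.90 and 8.83), whose partners Scnn1b and Scnn1g were at 5.95 and 4.16 FPKM in kidney and 0.577 and 0.0201 in liver. Of 6 genes of the glomerulus, 4 were higher in kidney and 1 in liver, against the same 10.6% and 9.35% of all genes. With a pseudocount of 1, 1 was higher in kidney and 0 in liver, and on the annotated strand 4 and 0.

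Hormone systems that run through both organs were divided by component. Agt, the precursor of angiotensin, was at 58.3 FPKM in liver and 6.04 in kidney, whereas the enzymes that process it were higher in kidney: Ren1, renin, was at 21.1 FPKM and 0.0245, and Ace at 28.0 and 0.187. Gc, the vitamin D carrier of plasma, was at 4577 FPKM in liver and 12.7 in kidney. The vitamin D receptor gene Vdr was at 16.9 FPKM in kidney and 0.00879 in liver, and Cyp24a1, which inactivates the vitamin, at 5.67 FPKM in kidney and listed at 0 in liver. Cyp27b1, the kidney enzyme that activates it, reached only 0.492 FPKM in kidney. Pth1r, the receptor for parathyroid hormone, was at 118.5 and 3.95 FPKM. The name Epo stands on a locus merged with Gnb2, and its values of 44.4 and 51.8 FPKM cannot be assigned to it. Without Epo, 10 genes of the list were compared. Of these, 7 were higher in kidney and 2 in liver, against 10.6% and 9.35% of all genes. The median log2 ratio was -5.71, or -5.56 without Cyp24a1.

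Transcription factors stood on both sides. Of 23 compared, 10 were higher in liver and 9 in kidney, against 9.35% and 10.6% of all genes. The other 4 were within 4-fold, and the median log2 ratio was 0.38. With a pseudocount of 1, 8 were higher in liver and 3 in kidney. Foxa2, Onecut1 and Nr5a2 were at 8.23, 9.59 and 11.8 FPKM in liver and at 0.00331, 0.00658 and 0.0320 in kidney. The loci of Foxa2 and Onecut1 lie on the opposite strand, and on the annotated strand their log2 ratios were 3.60 and 4.88 in place of 6.33 and 6.51. Nr1i3, the xenobiotic receptor CAR, was at 135.8 and 4.06 FPKM. Pax8 and Tfcp2l1, factors of the renal epithelium, were at 18.9 and 36.7 FPKM in kidney and at 0.0862 and 0.928 in liver. The 2 of these 23 factors in the shared set, against 1.94% of all genes compared, were Hnf4a and Nr1h4. Hnf4a (chromosome 2, 163506808 to 163572910) was at 206.5 FPKM in liver and 158.5 in kidney, 2.42 in VAT and at most 0.138 elsewhere, and Nr1h4, the bile acid receptor FXR (chromosome 10, 89454234 to 89533585), at 53.0 and 39.3 FPKM, with 0.549 in VAT. The locus used for Hnf4a lies on the strand opposite to the gene, and its antisense transcript Hnf4aos was at 16.5 FPKM in liver and 14.2 in kidney.

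Most genes in use in every cell were within 4-fold, as were most genes at large. All 14 genes of oxidative phosphorylation were within 4-fold, against 80.1% of all genes, with a median log2 ratio of -0.55 and 13 of 14 higher in kidney. Atp5b, a subunit of ATP synthase, was at 744.0 FPKM in kidney and 405.5 in liver. BAT or muscle exceeded both organs for every gene of this list. Of 12 housekeeping genes, 11 were within 4-fold, against the same 80.1%, with a median of -0.11. The exception was Tfrc, the transferrin receptor gene, at 30.04 FPKM in kidney and 6.91 in liver, and it too was within 4-fold with a pseudocount of 1 (log2 ratio -1.97 in place of -2.10). Of 5 markers of red blood cells, the 4 haemoglobin genes were within 4-fold, with Hbb-bs at 431.3 FPKM in liver and 562.3 in kidney, and Alas2, the haem synthesis enzyme of erythroid cells, was higher in liver (28.6 and 5.21).

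Markers of the smaller cell populations of liver were also compared. All 5 markers of Kupffer cells, the resident macrophages of liver, were higher in liver, and their summed level was 80.0 FPKM in liver and 0.0101 in kidney. Clec4f led with 43.3 FPKM in liver, and Clec4f, Vsig4, Marco and Timd4 were listed at 0 in kidney. Timd4 was within 4-fold with a pseudocount of 1. Of 5 markers of the sinusoidal endothelium, 4 were higher in liver, with Clec4g at 31.3 FPKM and 0.0138. Of 5 markers of stellate cells, the vitamin A-storing cells of liver, 4 were higher in liver. Lrat, which esterifies vitamin A, was at 14.3 and 1.26 FPKM, but its log2 ratio of 3.41 became 1.91 on the annotated strand. Of 5 genes used as markers of bile duct cells, 4 were higher in kidney and 1 in liver. Epcam, Krt7 and Spp1 were at 14.3, 7.15 and 88.0 FPKM in kidney and at 0.209, 0.111 and 7.13 in liver, and these genes are also expressed in tubule epithelium. The gene higher in liver was Sox9, with a log2 ratio of 2.47 that became 0.42 on the annotated strand. With a pseudocount of 1, 3 were higher in kidney and 0 in liver.

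Related genes with separate roles in the 2 organs were examined as 15 pairs, with 1 member chosen for liver and 1 for kidney. In 12 pairs the liver member was at least 4-fold higher in liver, against 9.35% of all genes. In 8 the kidney member was at least 4-fold higher in kidney, against 10.6%, and in 5 pairs both held. Of these 5, the pair Tfr2 and Tfrc rested on Tfrc (log2 ratio -2.10), which was within 4-fold with a pseudocount of 1 (-1.97). The pairs were chosen with earlier results of these data known. The clearest exchange was between the hydroxy-acid oxidases: Hao1 was at 64.4 FPKM in liver and listed at 0 in kidney, and Hao2 at 0.0960 in liver and 130.3 in kidney. The coreceptors for endocrine FGFs, Klb and Kl, were at 18.7 and 0.0206 FPKM in liver and at 0.0705 and 35.1 in kidney, and both values come from loci on the opposite strand (log2 ratios 6.78 and -8.19, and 5.34 and -6.76 on the annotated strand). The bile acid carriers Slc10a1 and Slc10a2 were at 177.4 and 2.41 FPKM in liver and at 14.1 and 19.2 in kidney.

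Other pairs did not divide in this way. Slc22a7, an anion transporter chosen as the liver member, was higher in kidney, at 51.7 FPKM against 12.1. Slc27a2, an acyl-CoA synthetase chosen for kidney, was at 933.4 FPKM in kidney and 940.5 in liver. Bhmt2 was at 39.2 FPKM in liver and 18.6 in kidney, so that of this pair Bhmt alone was 4-fold apart. Hsd11b2, an enzyme that inactivates glucocorticoids, was at 3.77 and 4.49 FPKM, with levels between 2.75 and 6.51 FPKM in every other tissue. The citrate transporter gene Slc13a5 was below 1 FPKM in both organs.

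**Figure D3:**
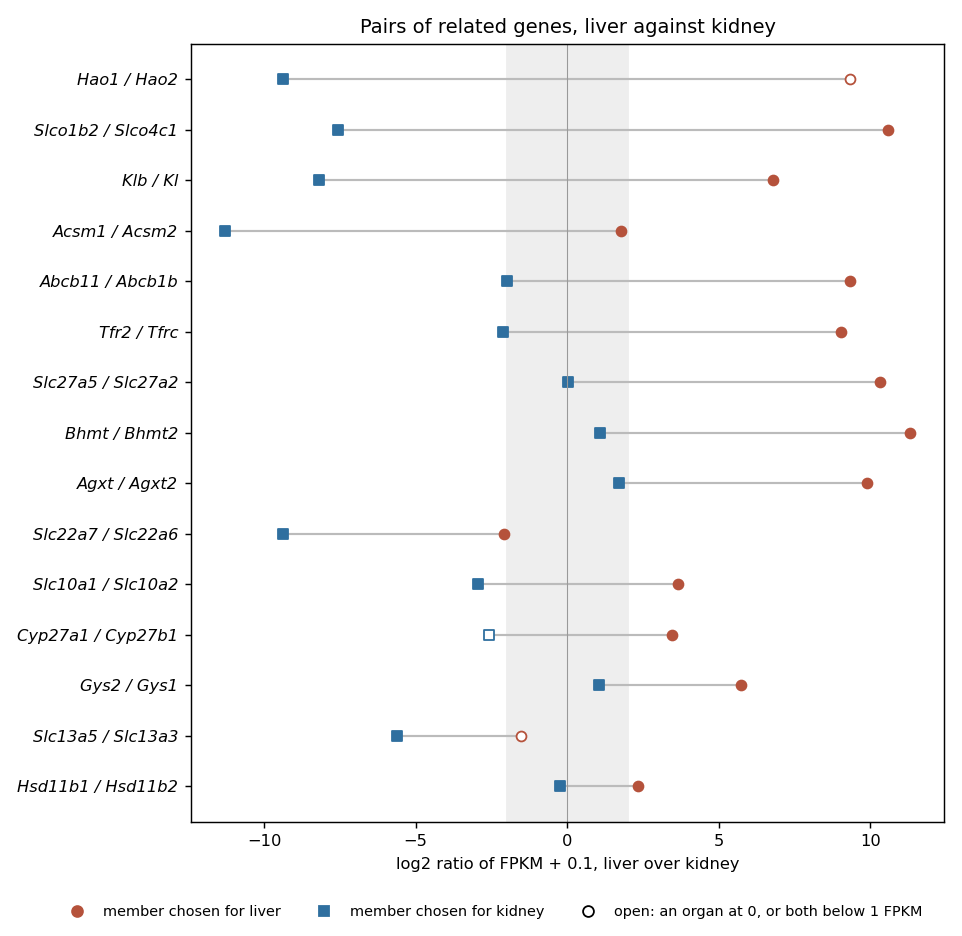
The 15 pairs of related genes are shown as rows, each joined by a line, with the log2 ratio of FPKM + 0.1, liver over kidney, on the horizontal axis. Red circles are members chosen for liver and blue squares those chosen for kidney, the grey band is the range within 4-fold, and open symbols mark genes listed at 0 in an organ or below 1 FPKM in both. The symbols stand on either side of the band in 5 pairs, from Hao1 and Hao2 at the top, and also for Cyp27a1 and Cyp27b1, of which the latter is below 1 FPKM, and the pair Slc22a7 and Slc22a6 lies wholly to the left.

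The shared set held 287 names on 264 loci, and 284 of them (1.94% of the genes compared) had at least 1 FPKM in liver or kidney. Of the 287, 226 were protein-coding and 31 long non-coding, and 175 had at least 10 FPKM in both organs. Liver was at least 4-fold higher than kidney for 40 of them and kidney for 25, and the median log2 ratio was 0.68. At the limit of the rule, Hes6 and Slc16a5 were just inside, with a smaller lead of 2.00 and 2.01 on the log2 scale, and Plxnb2 and Dio1 just outside, with 1.999 and 1.997. Dio1, which activates thyroid hormone, was at 32.9 FPKM in liver and 1.84 in kidney, against 0.386 in VAT.

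After liver and kidney, VAT ranked next for 188 of the 287 names, BAT for 39, muscle for 25, cortex for 22 and SCAT for 9, and 4 names were at 0 in all 5 other tissues. The VAT level of these genes had a median of 2.19% of their liver level. Protein-coding genes high in liver and at least 4-fold above all other tissues showed a like trace: 202 of these with at least 100 FPKM had a median of 1.10% of their liver level in VAT and 0.413% in kidney. The corresponding 60 kidney genes had a median of 0.941% of their kidney level in VAT and 0.416% in liver. The part of these traces in the count was not tested. Leaving a tissue out of the comparison can only enlarge the set: without VAT it held 411 names, and without SCAT 295.

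By the size of the smaller lead, the first genes with at least 1 FPKM in both organs included Cyp4a10, Glyat, Gm42796, Cyp2j5, Slc22a29, Ugt2b5 and Ugt2b38, Cyp4a14, Ugt3a1, Spp2, Aadat, Ugt3a2, Aass and Slc22a30. Cyp4a10 (chromosome 4, 115518264 to 115533649) was at 2.66 FPKM in VAT, 1.64 in BAT, 0.922 in muscle, 0.215 in cortex and 0.145 in SCAT, and its smaller lead, that of kidney over VAT, was 8.30 on the log2 scale. These values come from a locus on the opposite strand. The locus on the annotated strand, merged with Cyp4a31 and Cyp4a32, was at 1298 FPKM in liver, 527.2 in kidney and 9.73 in BAT, with a smaller lead of 5.74. Cyp2j5, a P450 that oxidises arachidonic acid, was at 220.5 FPKM in liver, 332.1 in kidney and 1.64 in VAT. Spp2, a secreted phosphoprotein, was at 109.3 FPKM in liver, 168.7 in kidney and 0.931 in VAT. Aadat, an aminotransferase of lysine and kynurenine breakdown, was at 78.8, 122.0 and 0.660 FPKM. Slc22a30, an organic anion transporter, was at 45.3, 67.3 and 0.459 FPKM. Ugt2b5 and Ugt2b38, glucuronosyltransferases, stand on 1 locus and have the same values, 339.4 FPKM in liver and 311.7 in kidney.

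**Figure D4:**
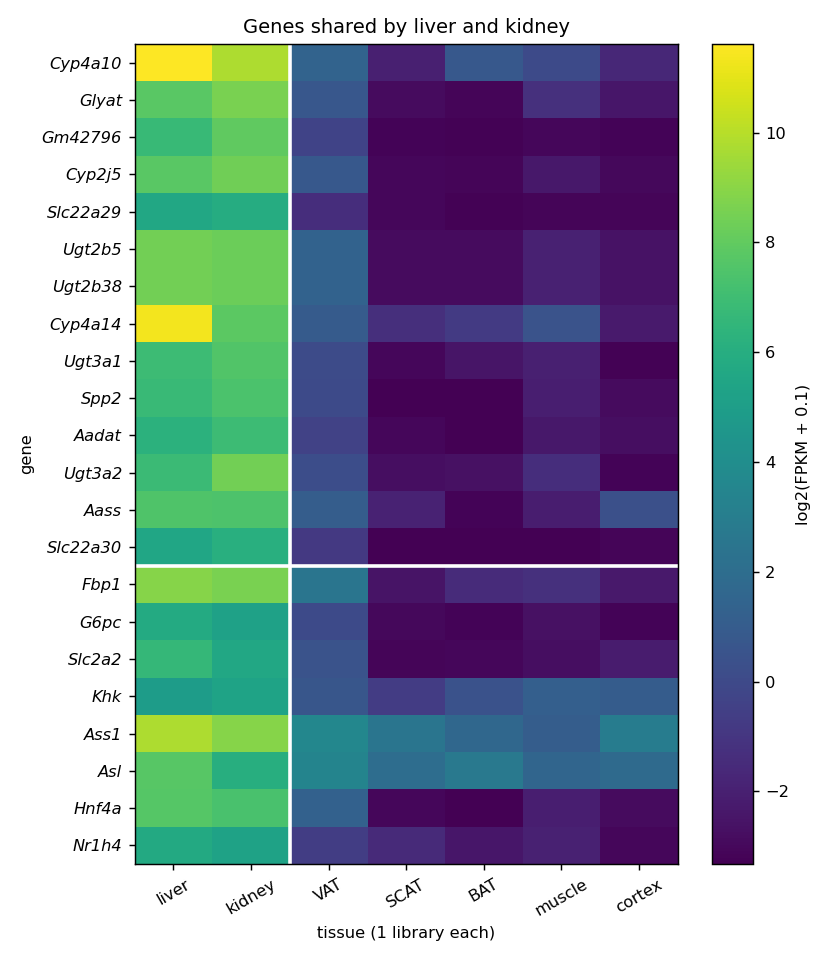
Colour gives log2(FPKM + 0.1) for 22 genes of the shared set (rows) in the 7 tissues (columns, 1 library each). The 14 rows above the white line are among the genes with the largest lead over the other tissues, and the 8 below it are shared members of the lists. The 2 columns at the left are bright and the next, VAT, is above the remaining 4 in most rows, as for Cyp4a10 with 2.66 FPKM in VAT.

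The shared set included genes with strong differences between the organs. Among those higher in liver, Tff3, a mucin-associated peptide, was at 11.9 FPKM in liver and 0.394 in kidney and at 0 in the remaining 5 tissues. Gcgr, the glucagon receptor, was at 87.0 FPKM in liver, 4.76 in kidney and 0.985 in VAT. Among those higher in kidney, Slc17a1, a phosphate and urate transporter, was at 270.2 FPKM in kidney and 7.06 in liver, and Keg1, a glycine acyltransferase-like gene, at 936.9 and 91.6. These genes were chosen for description after their values were seen. By gene family, also chosen afterwards, 13 of 62 cytochrome P450 genes, 12 of 20 glucuronosyltransferase genes and 6 of 22 Slc22 transporter genes were shared, against 1.94% of all genes compared, and 8 of the 12 glucuronosyltransferase names stand on the single Ugt1a locus. In the other families counted, the shared genes were 0 of 18 glutathione transferase (Gst) genes, 1 of 24 Serpin genes, 0 of 8 genes of the mitochondrial genome, 1 of 8 Slco, 1 of 8 Abcc, 2 of 15 Akr, 2 of 6 Sult, 2 of 5 Acsm and 4 of 17 Aldh genes. Of 272 solute carrier genes, 80 were higher in kidney, 27 in liver and 19 shared, against 10.6%, 9.35% and 1.94% of all genes.

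The start regions of the shared genes were searched for short words taken from the binding sites of HNF4 and HNF1 factors. RefSeq promoter windows (GRCm38.p6, 300 bases around the start) were found for 179 of 224 shared protein-coding genes, and both strands were read. The word CAAAGTC, from the HNF4 site, was present in 12.3% of these 179 genes, 4.95% of 9329 protein-coding genes that reached 1 FPKM in either organ, and 4.995% of all 27025 genes with a window. The word GTTAAT, from the HNF1 site, was present in 18.4%, 6.20% and 8.24%. Among protein-coding genes at least 4-fold higher in liver, the shared genes left out (699 with a window), CAAAGTC was present in 7.15% and GTTAAT in 10.7%, and among those higher in kidney (886 with a window), in 5.87% and 10.05%. The word TATAAA, of the TATA box, was present in 19.6% of the shared genes, 9.54% of the 9329 and 15.7% of all 27025, and in 17.9% of genes higher in liver and 13.7% of those higher in kidney. A word in a window is a description and not a bound site.

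Both words together were found in the windows of 5 of the 179 shared genes (2.79%), against 0.418% of the 9329. These 5 windows are shown because they hold both words, which stand in capitals in either orientation. Acnat2 encodes an acyltransferase that joins fatty acids to amino acids, Nat8 an acetyltransferase and Rnf186 a ubiquitin ligase, and Cyp2a4 and Cyp2a5 are P450 genes of the same cluster.
Acnat2, chr4:49408102-49408401, minus strand: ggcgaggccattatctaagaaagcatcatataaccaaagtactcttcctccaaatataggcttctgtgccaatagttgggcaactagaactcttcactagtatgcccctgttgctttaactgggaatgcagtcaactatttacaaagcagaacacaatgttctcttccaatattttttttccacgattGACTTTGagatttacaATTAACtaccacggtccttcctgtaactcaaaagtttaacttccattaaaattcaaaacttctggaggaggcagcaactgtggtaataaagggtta
Nat8, chr6:85832230-85832529, minus strand: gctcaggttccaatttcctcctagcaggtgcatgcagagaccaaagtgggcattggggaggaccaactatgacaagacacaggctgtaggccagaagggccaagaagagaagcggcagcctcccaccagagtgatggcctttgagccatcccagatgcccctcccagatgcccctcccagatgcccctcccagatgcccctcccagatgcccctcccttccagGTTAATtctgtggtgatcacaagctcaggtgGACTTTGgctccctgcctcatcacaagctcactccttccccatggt
Rnf186, chr4:138966869-138967168, plus strand: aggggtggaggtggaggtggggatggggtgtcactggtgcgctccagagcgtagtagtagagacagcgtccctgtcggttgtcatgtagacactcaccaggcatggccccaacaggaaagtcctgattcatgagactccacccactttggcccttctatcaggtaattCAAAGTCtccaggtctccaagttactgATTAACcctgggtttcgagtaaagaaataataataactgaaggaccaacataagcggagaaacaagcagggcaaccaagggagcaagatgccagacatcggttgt
Cyp2a5, chr7:26835089-26835388, plus strand: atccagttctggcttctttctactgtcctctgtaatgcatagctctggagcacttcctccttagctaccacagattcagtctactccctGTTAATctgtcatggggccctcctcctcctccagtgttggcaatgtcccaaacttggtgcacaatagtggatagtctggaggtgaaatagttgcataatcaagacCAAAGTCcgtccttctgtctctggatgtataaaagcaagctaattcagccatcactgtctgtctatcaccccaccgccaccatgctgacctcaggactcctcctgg
Cyp2a4, chr7:26306942-26307241, plus strand: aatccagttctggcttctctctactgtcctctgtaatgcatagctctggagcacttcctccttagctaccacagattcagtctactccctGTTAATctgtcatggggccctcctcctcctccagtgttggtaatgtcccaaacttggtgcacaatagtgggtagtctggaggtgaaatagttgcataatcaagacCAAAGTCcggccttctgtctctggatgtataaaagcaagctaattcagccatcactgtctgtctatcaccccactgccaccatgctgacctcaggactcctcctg

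The levels of these 5 genes did not go together. Acnat2 was at 6.71 FPKM in liver, 24.1 in kidney and 0.107 in VAT. Nat8 was at 2.28 FPKM in liver, 35.2 in kidney and 0.278 in cortex. Rnf186 was nearly equal, at 8.52 FPKM in liver and 10.9 in kidney, with 1.53 in VAT. The Cyp2a windows differ in 5 of 299 bases when shifted by 1 base, so that 98.3% of the bases are the same. Counted from 1 at the first base of the Cyp2a5 window, with the Cyp2a5 base first, the differences are T18C, C130T, A160G, T204G and C269T. The log2 ratios of the 2 genes had opposite signs, and only that of Cyp2a4 passed 4-fold: Cyp2a5 was at 138.5 FPKM in liver and 42.2 in kidney (log2 ratio 1.71), and Cyp2a4 at 1.19 in liver and 178.6 in kidney (log2 ratio -7.12, the lowest of the shared set). As near copies, they may share reads, and the division of reads between them is uncertain.

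Set beside the other combinations of these 7 tissues, liver and kidney had the most genes in common above the rest. The count depends on which tissues are present. VAT and SCAT, the pair with the fewest genes 4-fold apart, shared 50 names, which had also to exceed BAT. The same rule gave 287 names for liver and kidney, 159 for BAT and muscle, 137 for muscle and cortex and 119 for liver and VAT, the next of 21 pairs. Liver shared 42 names with cortex, 27 with BAT, 20 with SCAT and 13 with muscle. Kidney shared 102 with cortex, 65 with VAT, 24 with muscle, 13 with SCAT and 8 with BAT. In the share of genes at least 4-fold apart, 19.9%, the pair stood at rank 17 of 21, and the values ran from 11.5% for VAT and SCAT to 39.3% for liver and cortex. These counts describe 7 single libraries and were not tested.

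**Figure D5:**
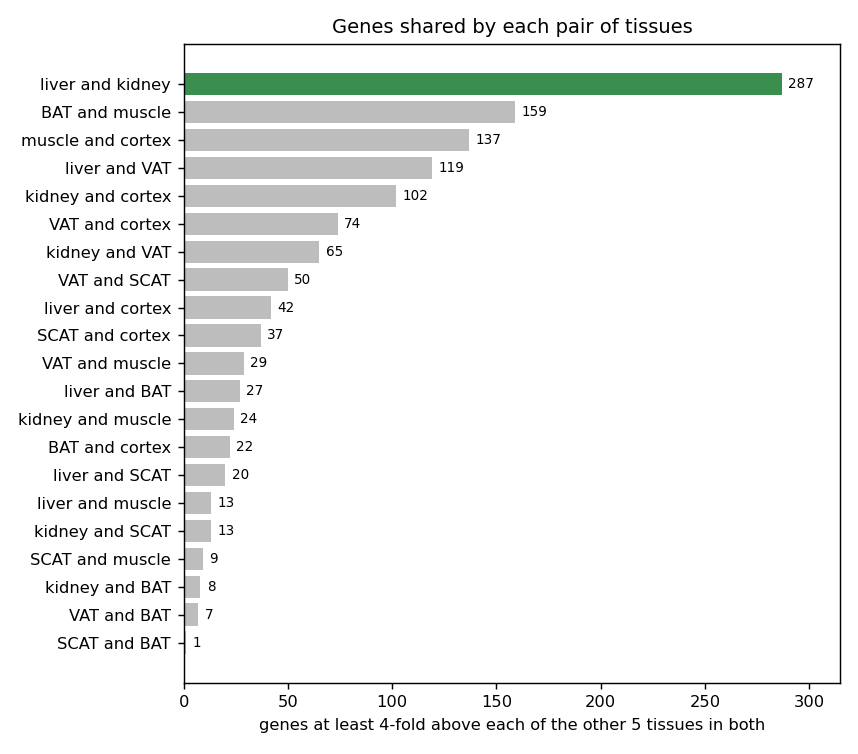
Bars give, for each of the 21 pairs of tissues, the number of names at least 4-fold above each of the other 5 tissues in both members of the pair, on an axis that starts at 0. The green bar is liver and kidney, with 287 names, and the longest grey bar, BAT and muscle, has 159.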

How the data were processed

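RNA-Seq libraries of 7 tissues, 1 per tissue, were made from rRNA-depleted total RNA with a directional kit. According to the study's methods and the submitters' processing notes, the authors removed adapters with flexbar and ribosomal reads with Bowtie2 2.2.9, aligned to mm10 (GRCm38) with STAR 2.6.0c, merged transcripts with Cufflinks 2.2.1 and compared the tissues by Cuffdiff. As deposited, the authors' table holds FPKM for 94339 loci in 21 pairwise comparisons. An FPKM does not vary between the comparisons that a tissue enters. The table's columns of fold changes, test statistics, p-values and q-values hold the authors' own comparisons and were not used. The settings for library type and scaling are not given in the sources used here.

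Names joined by commas were split, 151 loci with the status FAIL were dropped, and values of 0 with the status LOWDATA were treated as missing. A name found at several loci was given the values of the locus with the highest maximum, and 2135 of the 14637 genes compared stand on loci with several names. The table has no strand column. The order of its loci was used to infer strand, and on this basis 83.7% of the names compared use a locus on the annotated strand. Ratios were computed with a pseudocount of 0.1 and limits of 4-fold and 1 FPKM. No statistical test was run, because each tissue has 1 library. Depth, and with it the precision of a value, is unknown. Gene positions and biotypes come from GENCODE vM21 (GRCm38), and promoter windows from RefSeq (GRCm38.p6).

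Named genes are the members of the gene lists and pairs, the 10 largest ratios in each direction among loci with 1 name and at least 10 FPKM in the higher organ, the 15 shared names with the largest smaller lead, and small counts. Some members and pairs are not reported by name here. Genes picked for their values are marked as such in the text. The genes, lists and rules were chosen with earlier results of these data known. Acta1 and Cox4i1 were not analysed here. Alternatives covered the pseudocount, scaling, minimum, fold, choice of locus, missing values, strand, gene class and the VAT and SCAT libraries. Python 3.11.15, pandas 2.3.3, NumPy 2.4.6 and matplotlib 3.10.9 were used.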

Additional observations from a re-analysis of the deposited data

How the results depend on the processing

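With 1 library per organ, the depth behind a value is unknown and no count has an error. The counts of genes at least 4-fold higher in liver (1368), at least 4-fold higher in kidney (1552) and shared (287) moved by over 1.5 times in 8 of 44 alternatives. A pseudocount of 1 gave 908 in liver and 800 in kidney, a minimum of 5 FPKM gave 923 in liver and 824 in kidney, an 8-fold limit gave 1028 in kidney and 152 shared, and a 2-fold limit gave 2639, 2669 and 579. The larger pseudocount shrinks low levels by construction, and the other settings change the limit itself. Against the 4 other tissues without VAT, which was chosen after seeing the data, 411 names were shared, including all 287, and without SCAT 295. Between liver and kidney, median ratio scaling shifts ratios by 0.04 and upper quartile scaling by 0.10 on the log2 scale, and they gave 1328 and 1274 genes higher in liver, 1558 and 1572 in kidney and 253 and 248 shared. With loci on the annotated strand only, also chosen afterwards, the counts were 1178, 1274 and 263, and 252 of the 287 were among the 263. Of 40 named genes 4-fold apart on a locus of the opposite strand, 37 were 4-fold apart in the same direction on the annotated strand. Foxi1 (-1.04), Lrat (1.91) and Sox9 (0.42) were not. Of 186 named genes called, 23 were within 4-fold in at least 1 alternative, mostly with a pseudocount of 1. No paired analysis was possible because each tissue has 1 library and the result comes from no test.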

Other observations

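Several long non-coding RNAs were in the shared set beside a transcription factor gene. Hnf4aos, antisense to Hnf4a, was at 16.5 FPKM in liver, 14.2 in kidney and 0.102 in VAT. Hnf1aos1 and Hnf1aos2, on 1 locus, were at 3.19 FPKM in liver, 2.68 in kidney and 0.150 in muscle. Of 31 shared long non-coding RNAs, these were picked after their values were seen, and the reads of an antisense RNA and its partner may not have been kept apart in the table.

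Of 8 names of mitochondrially encoded transcripts compared, of which mt-Nd4 and mt-Nd4l stand on 1 locus, 0 were 4-fold apart, where 80.1% of all genes were within 4-fold. Their log2 ratios ran from -1.18 for mt-Nd3 to 1.67 for mt-Nd1 (341.0 FPKM in liver, 106.9 in kidney), with a median log2 ratio of 0.62, liver over kidney. The nuclear-encoded genes of oxidative phosphorylation had a median of -0.55. The gene for cytochrome c oxidase subunit 1, mt-Co1, had a missing value in all 7 tissues.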
